A study of Mus musculus with 18 samples.

Results

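The comparison described here is between livers without hepatic NADPH-cytochrome P450 reductase and control livers, all from mice that ate a lard diet. It was defined by the sample labels and holds 6 of the 18 arrays of the series, 3 knockout pools and 3 control pools. The knockout mice were Alb-Cre+/-/POR-lox+/+ and the controls were Alb-Cre-/-/POR-lox+/+, so that both genotypes carried floxed reductase alleles and only the knockouts carried Cre. The Cre transgene is driven by the albumin promoter, which is active in hepatocytes. Loss of the gene in hepatocytes, or its presence in other liver cells, was not measured here. All mice were male and 12 weeks old, and had eaten a synthetic diet with 7% lard for 8 weeks from the age of 4 weeks (the series text gives the fat as 6%). They were fasted for 4 h before collection. Each array carried liver RNA pooled from 3 mice, and the pool is the replicate, so a p-value here measures the spread between pools. The other 12 arrays hold the same genotypes on canola oil and on a mixture of fish and fungal oils, 3 pools of each, and serve below to show where the lard comparison differs.

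P450 reductase carries electrons from NADPH to the microsomal P450 enzymes, which oxidize drugs, steroids, bile acid precursors and fatty acids. It also serves haem oxygenase and squalene monooxygenase. Genes for drug-metabolizing enzymes are induced in hepatocytes by the nuclear receptors CAR and PXR, which respond to foreign and endogenous compounds, and by NRF2, a transcription factor that responds to electrophiles and oxidants. Lard is rich in saturated and monounsaturated fatty acids.

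Array medians of the 18 arrays lay between 5.229 and 5.286 on the log2 scale of the deposited values, and the arrays of each group correlated at 0.99283 to 0.99691. Of 18193 genes named on the array, 12578 were bright enough to test. The first principal component of the 6 lard arrays held 37.6% of their variance and separated the genotypes, with scores of 11.4 to 13.8 for the knockout pools and -14.4 to -10 for the control pools. The second component (22.3%) set knockout pool 3 apart, at 16.7, from knockout pool 2, at -12.2. The deleted gene, Por, was not analysed here and could not serve as a check of the genotypes. The liver identity of the samples was plain: the 12 hepatocyte-defining genes tested were bright in both genotypes and 0 of them passed the test, with albumin at 14.64, 14.63 and 14.73 in knockout pools and at 14.66, 14.69 and 14.65 in control pools (Alb log2 change 0.00, adjusted p = 1).

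On lard, 124 genes differed between knockout and control livers, which is 0.986% of the 12578 tested (limma, Benjamini-Hochberg adjusted p under 0.05). Higher expression dominated: 113 genes (0.898% of those tested) rose in knockout livers and 11 (0.0875%) fell. Of these, 31 rose and 2 fell by at least 2-fold, while the median log2 change of all genes tested was -0.004. The genes that rose include drug-metabolizing enzymes, transporters and glutathione transferases, several macrophage genes, and single genes of other kinds such as Nebl and Sprr1a. The 3 knockout pools lay entirely above or below the 3 control pools in 16.0% of all genes tested (9.14% higher, 6.84% lower) and in all 124 genes that passed. The number of calls depended on every pool: it was 30 without control pool 3, 43 without control pool 1, 48 without control pool 2 or knockout pool 2, 53 without knockout pool 1 and 61 without knockout pool 3. The 22 genes that kept their call whichever pool was left out were Cyp2b10, Cyp2c55, Cyp3a11, Cyp3a25, Gstm1, Gstm2, Gstm3, Ces2a, Ephx1, Abcb1a, Mmp12, Cd48, Ifi27l2b, Lpl, Ildr2, Nebl, Basp1, Rragd, Gpr137b, Sprr1a, Ndrg1 and Snx17. Of these, Cd48, Ifi27l2b, Ildr2, Basp1, Rragd and Ndrg1 fall outside the naming rule and were named after their values were seen.

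**Figure D1:**
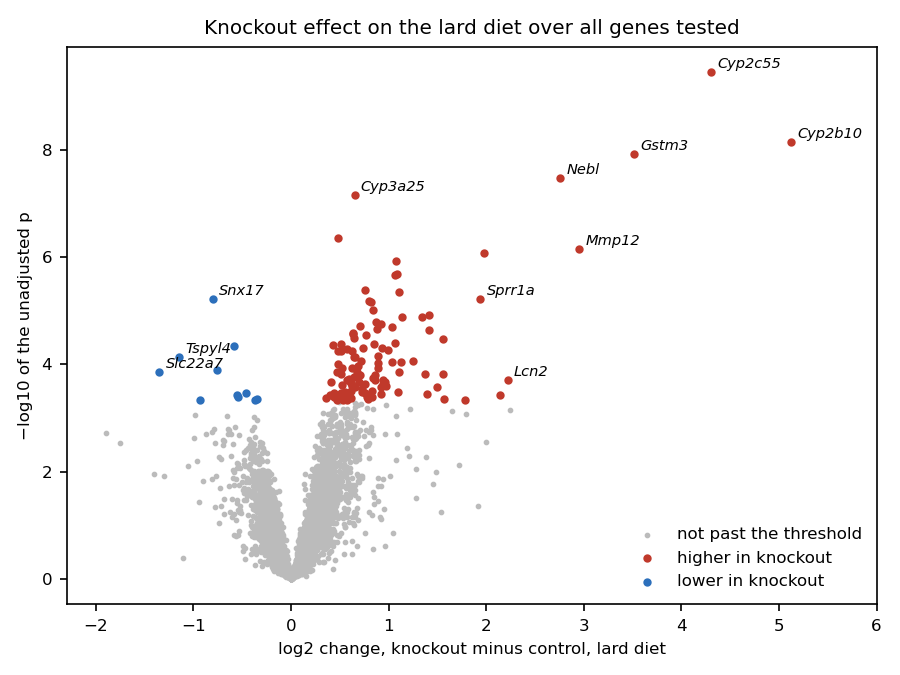
Log2 change (knockout minus control on lard, x axis) against -log10 of the unadjusted p (y axis) for the 12578 genes tested, 1 point a gene, with the 113 genes higher and the 11 genes lower in knockout livers in colour and a few of them named. The coloured points lie mostly to the right of 0, and Cyp2b10 stands furthest out at 5.12.

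The drug-metabolizing P450s held the largest rises. Cyp2b10, the P450 classically induced through CAR, measured 10.38, 10.68 and 11.01 in knockout pools, against 5.07, 5.76 and 5.87 in control pools. Its log2 change was 5.12 ± 0.49 (SE), or 34.7-fold, with adjusted p = 4.5e-05, and its other 2 probe sets, with control means below the array medians, gave lower bounds of 7.04 and 6.88. Cyp2c55, another P450 that CAR and PXR induce, measured 11.24, 11.99 and 11.03 in knockout pools, against 7.42, 6.96 and 6.99 in control pools (19.7-fold, log2 change 4.30 ± 0.34, adjusted p = 4.6e-06). For both genes the lowest knockout pool lay far above the highest control pool. The abundant P450s changed less, from levels near the top of the array's range. Cyp3a11, a main steroid and drug hydroxylase of mouse liver, measured 14.27, 14.33 and 14.28 in knockout pools, against 13.79, 13.75 and 13.91 in control pools (log2 change 0.48 ± 0.06, 1.39-fold, adjusted p = 0.00094). Cyp3a25 measured 13.41, 13.44 and 13.54 in knockout pools, against 12.79, 12.79 and 12.85 in control pools (log2 change 0.65 ± 0.07, adjusted p = 0.00018). Both rose by small factors with pools that agreed closely. In all, 8 of the 34 P450s of families 1 to 3 that were tested rose and 0 fell, where 0.898% of all genes tested rose, and their median log2 change was 0.15. The other 4 that rose, named after their values were seen, were Cyp2c54 (0.85), Cyp2c37 (0.86), Cyp2c29 (0.52) and Cyp2c50 (0.51), which are close paralogs that a probe set may not tell apart. Each of these 4 missed the threshold without at least 1 pool, with adjusted p reaching 0.072 for Cyp2c54 and 0.1 for Cyp2c29 without knockout pool 2, and 0.14 for Cyp2c37 and 0.073 for Cyp2c50 without control pool 1. Cyp2e1 (-0.03, adjusted p = 0.87), Cyp1a2 (0.67, adjusted p = 0.12) and Cyp2u1 (-0.79, adjusted p = 0.097) did not pass.

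The promoters of Cyp2b10, the gene with the largest rise, and Cyp3a11, the gene of this group with a match to the CAR element searched, are shown as 250 bases before the start of transcription (RefSeq, GRCm38.p6). Capitals mark the match to a pair of CAR half-sites AGNTCA that follow each other after any 4 bases (DR4), searched on both strands.
Cyp2b10 promoter (chr7:25897408-25897657, + strand): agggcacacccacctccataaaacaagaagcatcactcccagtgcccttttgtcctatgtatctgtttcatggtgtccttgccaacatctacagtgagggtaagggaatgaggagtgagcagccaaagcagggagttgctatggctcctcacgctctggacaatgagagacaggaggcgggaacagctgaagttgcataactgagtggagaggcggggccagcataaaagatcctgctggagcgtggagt
Cyp3a11 promoter (chr5:145879855-145880104, - strand): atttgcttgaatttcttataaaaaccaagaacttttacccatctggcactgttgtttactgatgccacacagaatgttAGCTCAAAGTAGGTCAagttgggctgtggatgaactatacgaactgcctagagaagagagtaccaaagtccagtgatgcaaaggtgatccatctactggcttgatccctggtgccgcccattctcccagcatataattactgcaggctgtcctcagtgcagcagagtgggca
Of the 87 genes that rose and had a promoter sequence, 1 held this motif (1.15%), against 8 of 10125 genes tested (0.0790%). The Cyp2b10 window holds none, and the phenobarbital-responsive enhancer known for this gene lies further upstream than the window shown. A match is a description of letters, not a site of binding.

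Conjugating enzymes rose with the P450s. Gstm3, a mu-class glutathione transferase, measured 13.61, 13.17 and 13.28 in knockout pools, against 9.74, 10.07 and 9.72 in control pools (log2 change 3.51 ± 0.35, 11.4-fold, adjusted p = 5.1e-05). Gstm2 measured 10.89, 10.26 and 11.17 in knockout pools, against 9.50, 9.35 and 9.24 in control pools (log2 change 1.41 ± 0.23, adjusted p = 0.0078). Gstm1 measured 13.77, 13.58 and 13.70 in knockout pools, against 12.86, 12.98 and 12.80 in control pools (log2 change 0.80 ± 0.13, adjusted p = 0.0052). The other probe sets of Gstm1 gave larger changes of 1.2, 1.19 and 1.07. The knockout pools of these 3 genes all lay above the control pools. Of the 20 glutathione transferases tested, 5 rose and 0 fell (median log2 change 0.22), where 0.898% of all genes tested rose. The other 2 were Gsta4, which conjugates lipid aldehydes (0.92 ± 0.21, adjusted p = 0.044), and Gsta2 (1.39 ± 0.31, adjusted p = 0.044), with adjusted p of 0.19 and 0.17 without control pool 3. Of the 21 glucuronosyltransferases and sulfotransferases tested, 2 rose, set against the same share. Sult1e1, the oestrogen sulfotransferase, measured 6.72, 4.86 and 7.55 in knockout pools, against 4.11, 4.17 and 4.42 in control pools. Knockout pool 2 lay close to the controls and the other knockout pools well above them. The control mean lay below the array medians, so that the log2 change of 2.14 ± 0.48 (adjusted p = 0.044) is a lower bound. It was 2.9 without knockout pool 2 (adjusted p = 0.0013) and 1.56 without knockout pool 3 (adjusted p = 0.17). Ugt2b37, a glucuronosyltransferase, measured 7.98, 7.04 and 7.54 in knockout pools, against 5.40, 5.48 and 6.34 in control pools (log2 change 1.78 ± 0.41, adjusted p = 0.048, and 0.21 without knockout pool 1).

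Hydrolases and membrane carriers rose as well. Ces2a, a carboxylesterase, measured 13.11, 13.24 and 12.91 in knockout pools, against 11.77, 12.14 and 12.10 in control pools (log2 change 1.08 ± 0.15, adjusted p = 0.0017). Ephx1, the microsomal epoxide hydrolase, measured 12.40, 12.35 and 12.24 in knockout pools, against 11.72, 11.52 and 11.62 in control pools (0.71 ± 0.12, adjusted p = 0.0099). These were the 2 of 16 members of the list of carboxylesterases and flavin monooxygenases that rose, where 0.898% of all genes tested rose. Abcb1a, a P-glycoprotein that exports drugs, measured 7.22, 7.30 and 7.64 in knockout pools, against 5.67, 5.33 and 5.23 in control pools (log2 change 1.98 ± 0.26, 3.94-fold, adjusted p = 0.0013). Abcc3, which exports conjugates to the blood, measured 10.39, 10.08 and 9.87 in knockout pools, against 9.04, 8.17 and 8.43 in control pools (1.56 ± 0.28, adjusted p = 0.013, and 0.071 without control pool 3). Slco1a4, an uptake carrier of organic anions, measured 10.54, 10.66 and 10.39 in knockout pools, against 9.29, 8.65 and 9.14 in control pools (1.5 ± 0.33, adjusted p = 0.038, and 0.15 without control pool 2). The groups of all these carriers were well apart. Slc22a7, an organic anion transporter, went the other way, with the largest fall among genes past the threshold: it measured 8.80, 8.84 and 9.04 in knockout pools, against 10.37, 10.17 and 10.20 in control pools (log2 change -1.35 ± 0.28, adjusted p = 0.029, and 0.1 without knockout pool 1).

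Of the CAR and PXR targets as a list, 17 of the 33 tested (51.5%) rose and 0 fell, where 0.898% of all genes tested rose. Of the 33, 31 are also on another list, so this count is not separate from the counts of the other lists. The list's median log2 change was 0.54, against -0.004 over all genes, and 25 of its 33 members had knockout and control pools that did not overlap, where 16.0% of all genes tested did not. The count was 9 without control pool 2, 10 without control pool 1, 11 without knockout pool 2 and 13 without any 1 of the other pools. The mean of the 33 members stood 1.01, 0.96 and 1.16 log2 units above the lard control mean in the knockout pools, against 0.10, -0.10 and 0.00 in the control pools. Members that did not pass include Ugt2b35 (0.54, adjusted p = 0.066), Cyp2b9 (1.92, adjusted p = 0.45), Alas1 (-0.12, adjusted p = 0.96) and Gadd45b (-0.04, adjusted p = 0.96). The receptors themselves did not pass: Nr1i3, which encodes CAR, measured 8.95, 8.93 and 9.55 in knockout pools, against 9.32, 8.61 and 8.94 in control pools, and Nr1i2, which encodes PXR, measured 7.74, 8.02 and 7.78, against 8.08, 7.34 and 7.56 in control pools (adjusted p = 0.82 and 0.85). Both receptors overlapped between the genotypes.

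**Figure D2:**
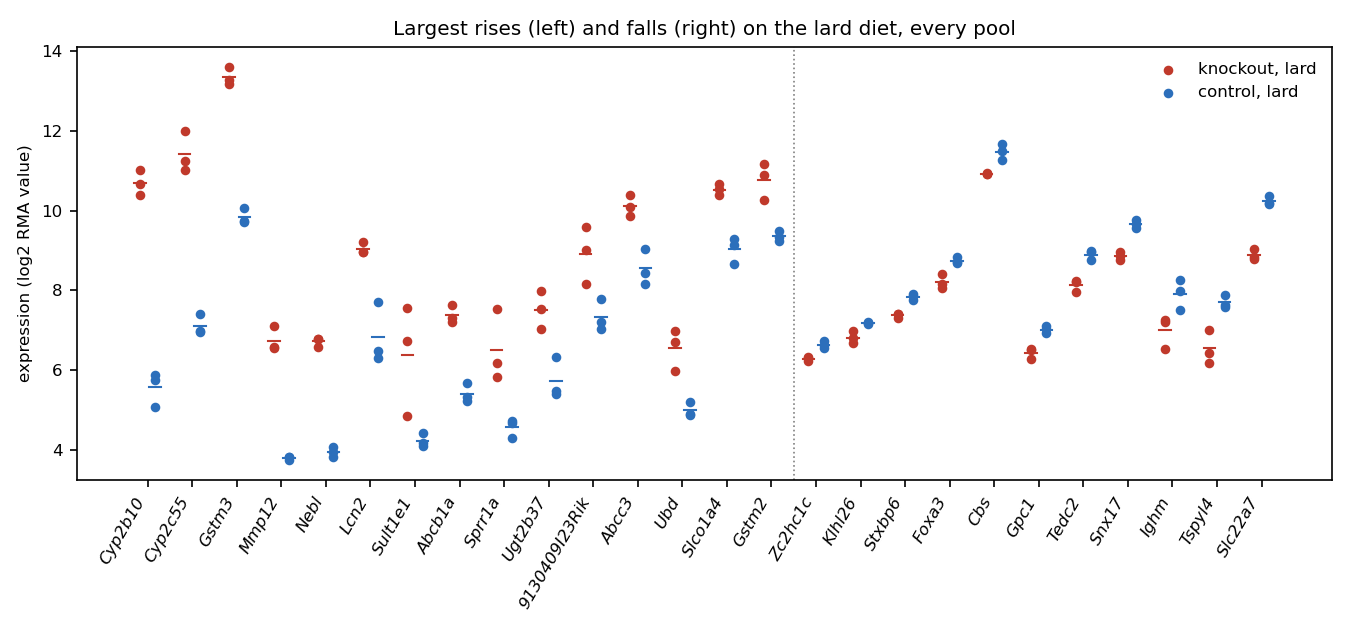
Log2 RMA value (y axis) in each pool on lard of the genes with the largest rises (left) and falls (right), with knockout pools left of control pools for each gene (x axis), 1 point a pool and a line at each group mean. The naming rule takes only genes whose knockout and control points do not overlap. Sult1e1 and Sprr1a have knockout pools that lie far apart from each other.

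Of the 31 NRF2 targets tested, 8 rose and 0 fell, where 0.898% of all genes tested rose, and the median log2 change was 0.44. Pools did not overlap for 20 of the 31, where 16.0% of all genes tested did not. Hmox1, haem oxygenase 1, which needs reductase for its activity, measured 7.09, 7.43 and 7.63 in knockout pools, against 6.38, 6.52 and 6.39 in control pools (0.95 ± 0.20, adjusted p = 0.033, and 0.15 without control pool 3). The other 7 were Gstm1, Gstm2, Gstm3, Gsta2, Gsta4, Ephx1 and Abcc3, each described above. Of the 8, Gstm1, Gstm2, Gstm3, Gsta2 and Abcc3 are also on the list of CAR and PXR targets, so these genes do not separate the lists. Other NRF2 targets did not pass, among them Nqo1 (0.47, adjusted p = 0.52), Gclc (0.35, adjusted p = 0.36), Txnrd1 (0.05, adjusted p = 0.96) and Srxn1 (0.70, adjusted p = 0.31). The count was 4 without control pool 2 or 3, 5 without control pool 1, knockout pool 1 or knockout pool 2, and 7 without knockout pool 3.

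Macrophage genes were a further group with many members higher on lard. Mmp12, macrophage elastase, measured 6.55, 7.10 and 6.58 in knockout pools, against 3.83, 3.82 and 3.74 in control pools, where it lay below the array medians (log2 change 2.95 ± 0.39, at least 7.71-fold, adjusted p = 0.0013). Cd14, the co-receptor for bacterial endotoxin, measured 7.17, 7.42 and 7.19 in knockout pools, against 6.22, 6.19 and 6.20 in control pools (1.06 ± 0.19, adjusted p = 0.015). The control pools of both genes lay within a narrow range, well below the knockout pools. Cd68, a lysosomal glycoprotein of macrophages, measured 8.08, 8.28 and 8.19 in knockout pools, against 7.39, 7.41 and 7.23 in control pools (0.84 ± 0.18, adjusted p = 0.032). Gpnmb, a marker of lipid-laden macrophages, measured 6.36, 6.01 and 6.65 in knockout pools, against 5.56, 5.56 and 5.31 in control pools (0.86 ± 0.18, adjusted p = 0.03). The 3 knockout pools of each gene lay above the 3 control pools. Of the 27 Kupffer cell and macrophage markers tested, 7 (25.9%) rose and 0 fell, and 22 had pools that did not overlap, where 0.898% of all genes rose and 16.0% had pools that did not overlap. The list's median log2 change was 0.54, and the remaining 3 that rose, Lyz2 (0.96), Fcer1g (0.59) and Itgax (0.41), were named after their values were seen. The count was 1 without any 1 control pool and 2 without any 1 knockout pool. Adjusted p reached 0.071 for Cd14 without knockout pool 2, and 0.16 for Cd68 and Gpnmb without control pool 3.

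The rise did not cover all macrophage genes. Clec4f, a lectin of resident Kupffer cells, measured 10.35, 10.29 and 10.36 in knockout pools, against 9.63, 10.23 and 9.96 in control pools (0.40, adjusted p = 0.29). Adgre1, the F4/80 antigen, measured 8.70, 9.01 and 8.81 in knockout pools, against 8.06, 8.46 and 8.36 in control pools (0.54, adjusted p = 0.17). Both had higher knockout pools without passing the test. Trem2 (0.02), Ccr2 (-0.04) and Cd163 (-0.15) overlapped between the genotypes (adjusted p = 0.98, 0.96 and 0.87). These 5 genes were named after their values were seen. The summed linear level of the 27 markers lay between 22551 and 24236 in knockout pools, against 14230 to 18751 in control pools, while that of the 12 hepatocyte-defining genes lay between 177056 and 178996, against 182329 to 186590 in control pools. In these bulk RNA pools, more cells of a type and more RNA per cell cannot be told apart.

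Other genes that rose are known from immune cells. Apart from Lcn2 they were picked after their values were seen, and no list of such genes was counted. Clec7a, the beta-glucan receptor dectin-1, measured 9.49, 9.90 and 9.13 in knockout pools, against 7.97, 8.19 and 8.15 in control pools (1.41 ± 0.25, adjusted p = 0.011, and 0.061 without knockout pool 2). Lgals3, galectin-3, measured 8.95, 9.20 and 9.15 in knockout pools, against 7.76, 7.72 and 7.72 in control pools (1.37 ± 0.28, adjusted p = 0.029, and 0.12 without control pool 3). Both are made by macrophages, and their groups were far apart. Tlr2, a receptor for bacterial lipoproteins (0.99), Icam1, an adhesion molecule for leukocytes (1.14), and Ccl2, which attracts monocytes (0.53), also passed, with adjusted p of 0.016, 0.008 and 0.048. Without control pool 3 these were 0.098, 0.061 and 0.19. The groups did not overlap for any of these 3 genes. Lcn2, lipocalin 2, a siderophore-binding protein of the acute phase, measured 8.97, 9.21 and 8.96 in knockout pools, against 6.49, 7.70 and 6.31 in control pools (2.22 ± 0.47, adjusted p = 0.033, and 0.18 without control pool 3). It was the only 1 of the 26 acute phase genes tested that passed. Of the 7 neutrophil markers tested 0 passed (median -0.11), where 0.986% of all genes tested passed.

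Some other genes that rose, known as targets of interferon, are given singly. Cxcl10, a chemokine for T cells, measured 7.66, 7.95 and 7.56 in knockout pools, against 6.63, 6.48 and 6.67 in control pools (1.13 ± 0.22, adjusted p = 0.022, and 0.1 without knockout pool 2). Usp18, which removes the ubiquitin-like ISG15, measured 9.54, 9.57 and 9.26 in knockout pools, against 8.98, 8.48 and 8.70 in control pools (0.74 ± 0.14, adjusted p = 0.016, and 0.074 without control pool 3). The lowest knockout pool of each lay above the highest control pool. Ifi27l2b (0.82, adjusted p = 0.0052), Oasl2 (0.61, adjusted p = 0.047), Gbp3 (0.52, adjusted p = 0.036) and Herc6 (0.53, adjusted p = 0.044) passed as well, the last 3 with adjusted p of 0.18, 0.17 and 0.21 without control pool 3. Ubd, which encodes the ubiquitin-like FAT10, measured 6.71, 6.98 and 5.97 in knockout pools, against 5.19, 4.88 and 4.90 in control pools, below the array medians (at least 2.95-fold, adjusted p = 0.029, and 0.12 without control pool 3). Except for Ubd these genes were named after their values were seen, and no list of interferon targets was counted. The promoter of Cxcl10 is shown because it holds both motifs searched for these genes, in capitals: an interferon-stimulated response element, spelled GAAA, any 2 bases and GAAA, and an antioxidant response element, TGAC, any 3 bases and GC, here on the reverse strand.
Cxcl10 promoter (chr5:92348890-92349139, - strand): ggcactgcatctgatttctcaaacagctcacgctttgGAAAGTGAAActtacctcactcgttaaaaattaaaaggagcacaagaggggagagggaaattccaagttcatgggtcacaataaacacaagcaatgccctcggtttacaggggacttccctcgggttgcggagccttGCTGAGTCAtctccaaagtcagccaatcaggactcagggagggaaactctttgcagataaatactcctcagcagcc
The first motif was in 4 of the 87 promoters of genes that rose (4.60%), against 3.10% of 10125, and the second in 14 of 87 (16.1%), against 14.0%. These shares are near those of all genes tested.

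Lymphocyte, sinusoidal endothelial, cholangiocyte and red blood cell markers held no gene that rose, where 0.898% of all genes tested rose. Of the 11 lymphocyte markers tested, 1 fell: Ighm, the heavy chain of IgM, measured 7.25, 6.53 and 7.21 in knockout pools, against 7.99, 8.27 and 7.51 in control pools (log2 change -0.93 ± 0.22, adjusted p = 0.048). Its other 10 probe sets gave -0.42 to 0.14, the mean of its probe sets gave -0.14 (adjusted p = 0.53), and without control pool 2 its adjusted p was 0.2. Among 24 stellate cell and fibroblast markers 1 rose, Timp1, an inhibitor of metalloproteinases that several cell types make, at 5.54, 5.40 and 5.56 in knockout pools, against 4.89, 4.82 and 4.90 in control pools (at least 1.54-fold, adjusted p = 0.012, and 0.05 without control pool 2). The collagens did not pass: Col1a1, Col1a2 and Col3a1 changed by 0.39, 0.61 and 0.69 on the log2 scale with adjusted p of 0.59, 0.32 and 0.39. The 19 endothelial markers had a median of 0.12, and the 17 pericentral and 15 periportal hepatocyte markers medians of 0.19 and -0.07, with 0 past the threshold in each. Pools did not overlap for 4, 7 and 3 genes of these lists, where 16.0% of all genes tested did not. With 0.986% of all genes tested past the threshold, counts of 0 or 1 past it in lists of these sizes do not set the lists apart.

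**Figure D3:**
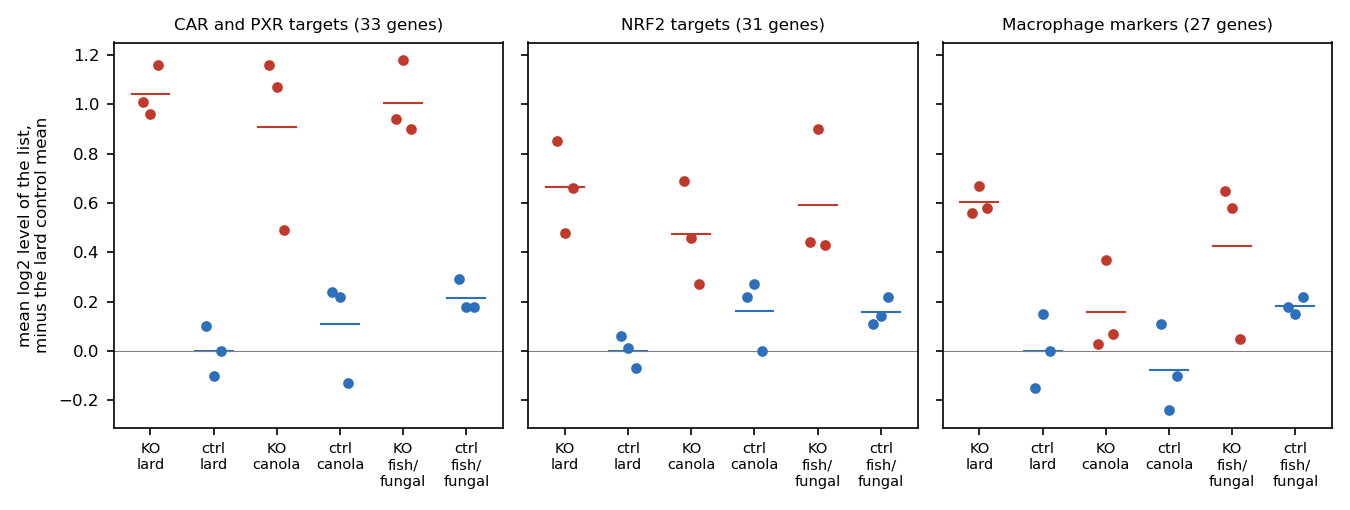
Mean log2 level in every pool of the tested CAR and PXR targets, NRF2 targets and Kupffer cell and macrophage markers, 1 panel a list. Levels are differences from the lard control mean (y axes), with knockout pools left of control pools within each diet. On lard the macrophage markers lie at 0.56 to 0.67 in knockout pools, against -0.15 to 0.15 in control pools, and the CAR and PXR targets at 0.96 to 1.16, against -0.10 to 0.10.

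In lipid metabolism, 3 genes of uptake and storage rose and 0 genes of fatty acid synthesis passed. Lpl, lipoprotein lipase, which releases fatty acids from lipoproteins and is low in normal adult liver, measured 10.94, 11.01 and 10.60 in knockout pools, against 9.70, 9.95 and 9.71 in control pools (1.06 ± 0.15, adjusted p = 0.0026). Fabp4, the fatty acid binding protein of adipocytes and macrophages, measured 8.50, 8.60 and 9.24 in knockout pools, against 8.10, 7.79 and 7.97 in control pools (0.83 ± 0.19, adjusted p = 0.046, and 0.18 without knockout pool 3). Anxa2, annexin A2, a membrane-binding protein of many cell types, measured 9.35, 9.05 and 9.74 in knockout pools, against 8.63, 8.34 and 8.34 in control pools (0.94 ± 0.20, adjusted p = 0.033, and 0.16 without control pool 3). With the mean of all probe sets in place of the brightest, Fabp4 and Anxa2 changed by 0.37 and 0.38 (adjusted p = 0.23 and 0.22). These were 3 of the 26 genes of lipid uptake and droplet storage tested, where 0.898% of all genes tested rose. The fatty acid translocase Cd36, named after its values were seen, measured 9.12, 9.40 and 10.36 in knockout pools, against 8.62, 7.60 and 7.69 in control pools, and did not pass (1.65 ± 0.40, adjusted p = 0.067).

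Of 26 genes of fatty acid synthesis, 0 passed and 5 were above 0 (median log2 change -0.20). Srebf1, whose product drives their transcription, measured 11.63, 11.31 and 11.40 in knockout pools, against 12.02, 12.28 and 12.14 in control pools (-0.70 ± 0.20, adjusted p = 0.14, and 0.015 in a fit of the 6 lard arrays alone). Scd2, a desaturase, measured 7.03, 7.07 and 7.03 in knockout pools, against 6.33, 6.65 and 6.05 in control pools (0.70 ± 0.21, adjusted p = 0.15, and 0.049 in the fit of the lard arrays alone). Both had pools that did not overlap, yet neither passed with the spread of all 18 arrays. Of the 22 cholesterol genes 0 passed (median -0.17), with Stard4, a cholesterol carrier, at -0.53 ± 0.15 (adjusted p = 0.11). Of 35 PPARα targets, the genes of fatty acid oxidation, 0 passed and 0 had pools that did not overlap (median 0.10), where 0.986% of all genes tested passed and 16.0% had pools that did not overlap. Pdk4, a kinase that restrains glucose oxidation, measured 6.08, 5.08 and 8.34 in knockout pools, against 5.06, 4.91 and 5.17 in control pools (1.45 ± 0.55, adjusted p = 0.31). Its log2 change was 0.54 without knockout pool 3 and 2.16 without knockout pool 2. Among 15 genes of desaturation and elongation 1 rose, Hacd1, a dehydratase of very long acyl chains (0.79 ± 0.18, adjusted p = 0.047, and 0.19 without knockout pool 2).

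Redox partners, bile acid synthesis and retinoid metabolism, which involve reductase or its P450s, held no gene past the threshold. With 0.986% of all genes tested past it, lists of these sizes would hold about none, so these counts do not set the lists apart. Of the 9 genes of P450 redox partners tested 0 passed, with Cyb5a, cytochrome b5, at 0.14 ± 0.06 (adjusted p = 0.33). Of 22 genes of bile acid synthesis, whose first steps are P450 reactions, 0 passed (median -0.03), and Cyp7b1, the oxysterol 7-alpha-hydroxylase, measured 12.83, 12.37 and 12.12 in knockout pools, against 12.96, 13.03 and 13.20 in control pools (-0.62 ± 0.19, adjusted p = 0.17). Of 23 genes of retinoid metabolism 0 passed. Cyp26a1, which degrades retinoic acid, measured 6.87, 6.59 and 8.69 in knockout pools, against 6.04, 6.06 and 6.42 in control pools (1.21 ± 0.38, adjusted p = 0.17). The 10 omega-hydroxylases of the Cyp4 family, the 29 subunits of the respiratory chain and the 34 proteasome subunits held 0 genes past the threshold, with medians of 0.04, -0.04 and -0.02.

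Of the 23 genes of the integrated stress response 0 passed (median 0.02). Asns, asparagine synthetase, had a large change that missed the threshold: it measured 8.95, 9.05 and 8.15 in knockout pools, against 5.78, 7.43 and 6.22 in control pools (2.24 ± 0.54, adjusted p = 0.066). It passed with array weights (adjusted p = 0.023), in a fit of the lard arrays alone (0.024) and with the replicate number as a block (0.02). Other members changed less, with Trib3 at 0.43 (adjusted p = 0.21), and Atf4 and Fgf21, named after their values were seen, at 0.01 and -0.04 (adjusted p = 0.99 and 0.97). Of the 25 listed genes of the cell cycle 1 rose, Cdkn2c, a kinase inhibitor (0.64 ± 0.13, adjusted p = 0.03, and 0.18 without control pool 3). Of the 25, 21 were above 0 (median 0.39) and 10 had pools that did not overlap, where 16.0% of all genes tested did not. Cdt1, a DNA replication licensing factor outside this list, rose as well (0.77 ± 0.14, adjusted p = 0.012, and 0.075 without control pool 3). Of the 23 male-biased genes 0 passed (median -0.20) and of the 16 female-biased genes 2 rose, Cyp2b10 and Sult1e1, which are also CAR and PXR targets (median 0.36). Pools did not overlap for 10 of the 23 male-biased genes, 9 of the 16 female-biased genes and 4 of the 18 clock genes. Of the 18 clock genes 0 passed although 17 were below 0 (median -0.22), led by Noct, a deadenylase with a daily rhythm, at -1.30 ± 0.47 (adjusted p = 0.27). Over all genes tested 0.986% passed and 0.898% rose. Counts of 0 or 1 past the threshold in lists of these sizes do not set the lists apart. The median shifts and the counts of genes whose pools did not overlap are descriptions and were not tested.

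**Figure D4:**
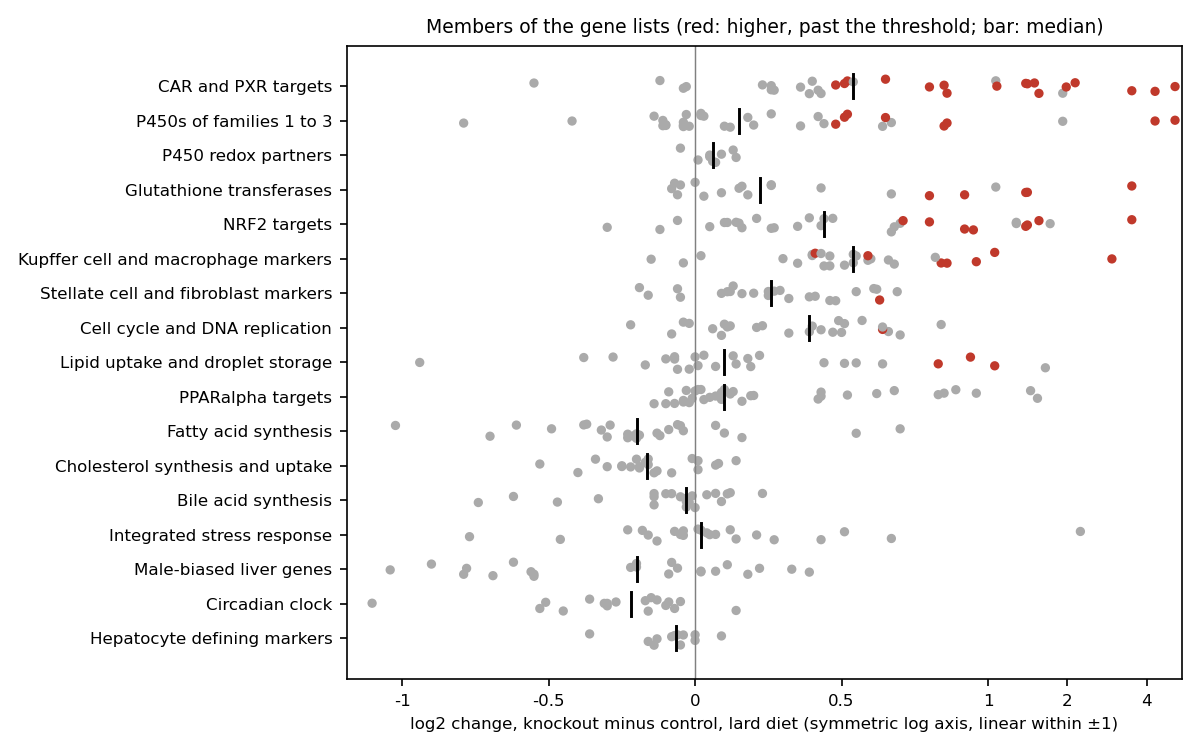
Log2 change (knockout minus control on lard, x axis, linear within 1 of 0 and logarithmic beyond) of each tested member of 17 gene lists (y axis), 1 point a gene, with a bar at the list median. The CAR and PXR targets and the macrophage markers have medians of 0.54 each, and 17 and 7 of their members past the threshold.

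Single genes that belong to no list had some of the largest changes. Nebl, nebulette, an actin-binding protein known from heart muscle, measured 6.78, 6.78 and 6.58 in knockout pools, against 4.08, 3.82 and 3.96 in control pools, below the array medians (2.76 ± 0.29, at least 6.78-fold, adjusted p = 0.00011). Its other 2 probe sets, dim in both genotypes, gave -0.06 and 0.25. Sprr1a, a small proline-rich protein of stressed epithelia, measured 5.83, 6.18 and 7.53 in knockout pools, against 4.31, 4.68 and 4.73 in control pools (1.94 ± 0.30, at least 3.84-fold, adjusted p = 0.0052). Its promoter is shown for the match to the antioxidant response element, in capitals, on the reverse strand. This motif was in 16.1% of the promoters of genes that rose, against 14.0% of those of all genes tested.
Sprr1a promoter (chr3:92485882-92486131, - strand): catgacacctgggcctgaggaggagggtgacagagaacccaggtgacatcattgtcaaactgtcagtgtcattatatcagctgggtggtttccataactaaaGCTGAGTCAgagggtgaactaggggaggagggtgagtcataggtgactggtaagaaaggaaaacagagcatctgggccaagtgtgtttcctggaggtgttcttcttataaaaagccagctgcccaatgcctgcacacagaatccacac
The gene 9130409I23Rik measured 9.58, 9.02 and 8.15 in knockout pools, against 7.78, 7.04 and 7.22 in control pools (1.57 ± 0.36, adjusted p = 0.047, and 0.23 without knockout pool 1). Rragd, a GTPase of the lysosomal nutrient-sensing complex, measured 6.55, 6.77 and 6.91 in knockout pools, against 5.82, 5.62 and 5.52 in control pools (1.09 ± 0.16, adjusted p = 0.0026). Ildr2, a membrane protein of the endoplasmic reticulum, measured 8.92, 9.37 and 9.01 in knockout pools, against 7.89, 7.60 and 7.78 in control pools (1.34 ± 0.22, adjusted p = 0.008). Rragd and Ildr2 were named after their values were seen.

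The other 9 genes that fell, besides Slc22a7 and Ighm, changed by -1.15 to -0.35. Tspyl4, a relative of nucleosome assembly proteins, measured 7.01, 6.44 and 6.19 in knockout pools, against 7.63, 7.89 and 7.59 in control pools (-1.15 ± 0.22, adjusted p = 0.019, and 0.095 without knockout pool 3). Snx17, a sorting nexin that recycles receptors of the LDL receptor family, measured 8.87, 8.76 and 8.97 in knockout pools, against 9.76, 9.67 and 9.56 in control pools (-0.80 ± 0.12, adjusted p = 0.0052). It was the only gene that fell and kept its call without any 1 pool. Tedc2, a tubulin-associated protein (-0.76), Gpc1, a heparan sulfate proteoglycan (-0.58), Cbs, cystathionine beta-synthase (-0.55), Foxa3, a liver transcription factor (-0.54), and Stxbp6, Klhl26 and Zc2hc1c (-0.46, -0.37 and -0.35) had adjusted p between 0.016 and 0.048. Their highest adjusted p with 1 pool left out was 0.12 for Tedc2 and 0.19 for Stxbp6 (both without control pool 3), 0.079 for Gpc1 (without knockout pool 3), 0.18 for Cbs (without control pool 2), 0.18 and 0.2 for Foxa3 and Klhl26 (without knockout pool 2) and 0.18 for Zc2hc1c (without control pool 1). The number of falls was 2 without any 1 control pool, 3 without knockout pool 2 and 6 without knockout pool 1 or 3.

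The series allowed the question of whether the knockout effect on lard differs from that on the other diets. For no gene was such a difference past the threshold. With the mean of the canola and fish/fungal effects set against the lard effect, 0 of 12578 genes passed in limma, the smallest adjusted p was 1, and 284 fell under 0.05 before adjustment. The count was 1 without fish/fungal control pool 1 and 1 without fish/fungal knockout pool 2. Against canola and fish/fungal singly the counts were also 0, with 241 and 305 before adjustment. Within each diet, 124 genes passed on lard, 37 on fish/fungal oil (32 higher, 5 lower) and 8 on canola (7 higher, 1 lower, and 90 in all with array weights), which does not show a difference between the diets. Of the 124 genes, 121 changed in the same direction on canola and 120 on fish/fungal oil, where 62.6% and 65.9% of all genes tested did. The 3 comparisons share no array. On canola 7 of the 124 passed as well (5.65% of the lard genes and 87.5% of the canola genes), and on fish/fungal oil 18 (14.5% and 48.6%). The 6 genes called on all 3 diets were Cyp2b10, Cyp2c55, Gstm3, Ces2a, Lpl and Rragd.

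The values of the drug-metabolizing genes are set side by side for the 3 diets, with no test that they are alike. Cyp2b10 changed by 5.12 on lard, 4.28 on canola and 5.34 on fish/fungal oil, and Cyp2c55 by 4.30, 3.72 and 4.39. For both genes canola knockout pool 3 lay below the other canola knockout pools. It measured 8.14 for Cyp2b10, against 11.08 and 10.57, and 9.6 for Cyp2c55, against 11.21 and 11.14. The part of this pool in the smaller canola values was not tested. The difference of lard from the other diets was 0.31 ± 0.60 for Cyp2b10 and 0.24 ± 0.41 for Cyp2c55, both with adjusted p = 1. Ces2a changed by 1.08, 1.05 and 1.04. Other members had larger values on lard: Abcb1a changed by 1.98, 1.06 and 0.65 (difference 1.12 ± 0.32), Gstm3 by 3.51, 2.54 and 3.07 (0.71 ± 0.43), Gstm2 by 1.41, 0.60 and 1.08 (0.58 ± 0.29), Ephx1 by 0.71, 0.32 and 0.27 (0.42 ± 0.15) and Cyp3a25 by 0.65, 0.36 and 0.36 (0.29 ± 0.09). Each of these differences also had adjusted p = 1. The CAR and PXR targets had medians of 0.54 on lard, 0.46 on canola and 0.47 on fish/fungal oil. The macrophage markers had medians of 0.54 on lard, 0.21 on canola and 0.23 on fish/fungal oil, the NRF2 targets 0.44, 0.22 and 0.26, and the cell cycle genes 0.39, 0.09 and 0.00. On fish/fungal oil the macrophage level of the knockout pools ran from 0.05 to 0.65 above the lard control mean, against 0.15 to 0.22 in the control pools. On canola it ran from 0.03 to 0.37 in knockout pools, against -0.24 to 0.11 in control pools. These list medians were set side by side without a test of their difference.

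The 113 genes that rose on lard had a median log2 change of 0.78 on lard and 0.42 on each of the other diets, and 101 of them changed more on lard than on both. They were chosen by their lard values, which by itself favours larger values on lard. The 5 genes with the smallest p for the difference are given as values. Sprr1a changed by 1.94 on lard, 0.47 on canola and 0.10 on fish/fungal oil (difference 1.66 ± 0.37). Mmp12 changed by 2.95, 0.96 and 0.93 (difference 2.00 ± 0.48), but its mean lay below the array medians in every group except the lard knockout, so the canola and fish/fungal changes compare dim values and neither they nor the difference are exact sizes. The same holds for Sprr1a on fish/fungal oil, and its control means lay below the array medians on all 3 diets. On canola the Mmp12 knockout pools measured 5.26, 5.77 and 4.27, against 4.13, 4.41 and 3.89 in control pools. On fish/fungal oil they measured 4.60, 6.15 and 4.10, against 4.14, 3.91 and 4.00. The highest knockout pool on either of these diets lay below the lowest lard knockout pool. Gpr137b, a lysosomal membrane protein, changed by 0.76, 0.18 and 0.14 (difference 0.60 ± 0.14), and Cdt1, a DNA replication licensing factor, by 0.77, 0.22 and 0.10 (difference 0.61 ± 0.17). Ccn1, a matricellular growth factor, changed by 0.78 on lard, 0.30 on canola and -0.52 on fish/fungal oil (difference 0.89 ± 0.22). On fish/fungal oil its knockout pools measured 6.37, 6.44 and 6.5, against 6.38, 7.44 and 7.07 in control pools, so control pool 1 lay near the knockout pools. Its other probe sets, with control means below the array medians, gave 0.49, 0.32 and 0.35 on lard. All 5 differences had adjusted p = 1. That of Ccn1 passed without fish/fungal control pool 1 (1.04, adjusted p = 0.017), and that of Mmp12 without fish/fungal knockout pool 2 (2.3, adjusted p = 0.046).

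**Figure D5:**
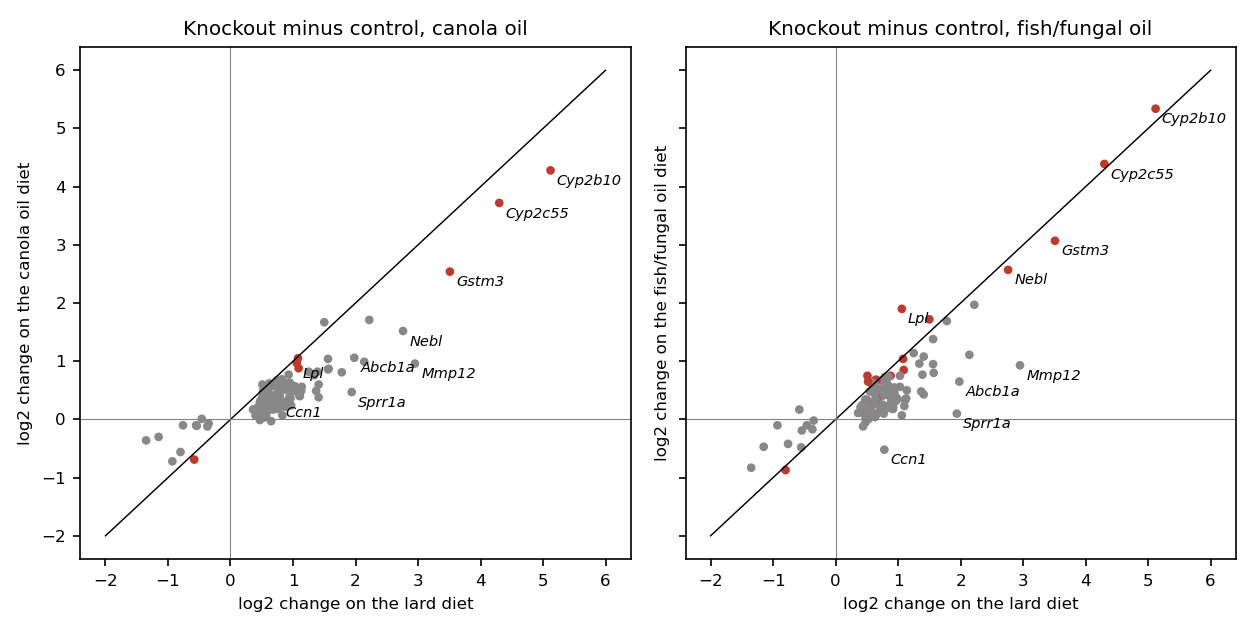
Log2 change (knockout minus control) of the 124 genes called on lard, with the lard value on the x axis and the canola (left) or fish/fungal (right) value on the y axis, and the line of equal change. Red points are genes that also passed on the other diet, 7 on canola and 18 on fish/fungal oil, and most points lie between 0 and the line.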

How the data were processed

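Liver expression was measured on Affymetrix whole-genome mouse arrays, 18 in all, each carrying RNA pooled from 3 mice. The authors deposited log2 expression values from RMA processing, as named in the submitters' processing notes. The software version is not given in the sources used here, and the log2 scale was read from the values, which run from 2.409 to 14.89. RMA normalizes the arrays together, so a value of 1 array depends on the others, and low signals are compressed.

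The 45101 probe sets include 64 array controls. Of the rest, 34945 had 1 gene symbol, 932 had several and 9160 were unnamed, and these last 2 kinds were left out. Symbols were updated by gene ID through RefSeq (GRCm38.p6), which matched 34741. Where a gene had several probe sets (9010 genes), the brightest on average stood for it. A gene was tested if it lay above the array median in at least 3 of the 18 arrays. A group mean below the array medians makes a change a lower bound. No probe set was named for Por.

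Tests used limma 3.58.1 in R 4.3.3: a single model of the 6 groups, fitted to the 18 arrays with trend-moderated variances (12 residual degrees of freedom), two-sided p-values, Benjamini-Hochberg adjustment over 12578 genes and a threshold of 0.05. The comparison, the 44 gene lists (32 of pathways, 12 of cell types) and the naming rule were chosen with earlier results of these data known. The rule names the 15 largest rises and falls among genes past the threshold whose knockout and control pools do not overlap. It also names the 5 smallest p-values of the difference between diets where fewer than 5 pass. From each list it takes at most 4 that passed or, where none did, 2 as values. Promoters, 250 bases before the start, come from RefSeq (GRCm38.p6). The alternatives were other normalizations, filters, probe set choices, variance settings, the 6 lard arrays alone, blocking on the replicate number and omitting each array in turn.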

Additional observations from a re-analysis of the deposited data

How the results depend on the processing

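All 124 genes kept their direction under every alternative in which they were tested, and no named gene reversed. For most alternatives this was fixed in advance, because the pools of all 124 genes did not overlap. Omitting or weighting arrays, blocking, filters and variance settings could not reverse such a gene. Only other normalizations or probe set choices could. On lard the count of 124 was 70 with a filter at the 75th percentile and 30 to 61 with 1 lard array left out. It was 107 after repeated quantile normalization, 98 with the mean of all probe sets and 86 without probe sets prone to cross-hybridization, and it was 182 with array weights (164 higher) and 174 with the 6 lard arrays alone (155 higher). The 113 rises became 63 with the stricter filter and 28 to 55 with 1 array left out. The 11 falls became 17 with arrays centred on the median of the genes tested, 7 without a filter, 7 with the stricter filter, 4 without probe sets prone to cross-hybridization, 18 with array weights, 19 with the 6 lard arrays alone, and 2 to 6 with 1 array left out. The share of rises among the calls ran from 84.3% to 95.8%. With 1 lard array left out, 9 to 13 CAR and PXR targets, 4 to 7 NRF2 targets and 1 to 2 macrophage markers rose, and 3 macrophage markers rose with the stricter filter. Array weights gave 90 calls on canola, and the mean of all probe sets gave 24 on fish/fungal oil. The difference between lard and the other diets had 0 to 1 calls with 1 array left out (1 without fish/fungal control pool 1, Ccn1, and 1 without fish/fungal knockout pool 2, Mmp12). The causes were not tested, apart from the smaller number of arrays or genes that some alternatives leave. With the replicate number as a block, 108 genes passed on lard, 100 of them shared with the 124, and 6 fell. Deviations of same-numbered knockout and control pools correlated at -0.002, -0.2 and -0.247. The highest correlations of the same knockout pools with control pools of other numbers were 0.045, 0.336 and 0.133. Whether same-numbered pools share a batch was not tested, and 3 pools per group could not settle it. The 3 pools per group limit the precision, and genes near the array medians have compressed changes.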

Other observations

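The remaining lists held few calls on lard, where 0.986% of all genes tested passed. Of 17 bile salt and sterol transporters 2 rose, Abcc3 and Slco1a4, and of 14 LXR targets 1 rose, Abcb1a. Of 17 genes of haem synthesis and breakdown 1 rose, Hmox1, while the erythroid synthase Alas2 measured 9.62, 9.67 and 9.25 in knockout pools, against 9.93, 9.77 and 9.72 in control pools (-0.29 ± 0.12, adjusted p = 0.35). Of 19 genes of iron handling 1 rose, Lcn2, and of 3 adipocyte markers 1 rose, Fabp4. The lists of 23 apolipoprotein and lipoprotein assembly genes, 19 genes of glucose production and glycolysis, 25 chaperones of the endoplasmic reticulum, 16 genes of the growth hormone axis and 28 nuclear receptors held 0 genes past the threshold, with medians of -0.05, -0.14, 0.01, -0.06 and -0.10.

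The 6 pancreatic acinar markers tested, genes of another tissue, had a summed linear level of 853 to 1181 in knockout pools, against 1335 to 1628 in control pools. Cela1, an elastase that led this list, measured 9.07, 9.71 and 9.40 in knockout pools, against 10.10, 9.97 and 10.31 in control pools (-0.74 ± 0.23, adjusted p = 0.18), and 0 of the 6 passed. The linear sum weighs bright genes such as Cela1 most. The list's median log2 change was -0.11, and 1 of the 6 was above 0, Cela3b (0.11, adjusted p = 0.81). The part of this list in any result was not tested. Scara5, a ferritin receptor with male-biased liver expression, measured 7.47, 7.46 and 7.26 in knockout pools, against 8.30, 8.44 and 7.79 in control pools (-0.78 ± 0.22, adjusted p = 0.13).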
